A study of Mus musculus with 6 samples.

Results

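The Hox cluster genes are the homeobox transcription factor genes that lie side by side in the HoxA, HoxB, HoxC and HoxD clusters. They were taken from the gene count matrix by symbol: the prefix Hoxa, Hoxb, Hoxc or Hoxd followed by a number. The rule found 39 of 55401 rows, with 11 genes in HoxA, 10 in HoxB, 9 in HoxC and 9 in HoxD, and no symbol stood on more than 1 row. RNA-seq of poly(A)-selected RNA was performed on C2C12 cells, a mouse myoblast line that originated from leg muscle of an adult mouse and fuses into myotubes when serum is lowered. Each of 2 groups held 3 libraries, from wells harvested 2 d after a switch to DMEM with 2% horse serum and 1% PS. Control cells, which the labels call wild type, were mock cells that had received a plasmid with Cas9, the ZsGreen1 reporter and a guide RNA without a match in the mouse genome. *Phf2* KO cells had received a pool of 4 such plasmids, with guides to *Phf2* exons 1, 5, 6 and 7. In both groups the cells with ZsGreen fluorescence were collected by a cell sorter and used as a pool, without cloning from single cells. The comparison therefore set 3 wells of 1 *Phf2* KO pool against 3 wells of 1 control pool, and the p-values measure the spread between wells, which may be technical.

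Vertebrate Hox genes are ordered in each cluster by paralog group, from group 1 at the 3′ end to group 13 at the 5′ end, and the groups are expressed along the body axis in that order. The combination of Hox genes that a cell expresses records its position, and cells taken from the adult limb or trunk often keep that pattern in culture. Groups 9 to 11 are best known for patterning the lumbar and sacral trunk and the proximal and middle limb, and group 13 for the distal limb and the hindmost trunk. Clusters that are not in use are held silent by Polycomb complexes, which methylate H3K27. PHF2, the protein whose gene was targeted here, is a demethylase of a different repressive mark, H3K9me2.

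*Phf2* itself was measured first. Its CPM values (counts scaled to library size by the TMM method) were 102, 95.5 and 105 in control libraries 1, 2 and 3 and 41.1, 37.6 and 38.6 in *Phf2* KO libraries 1, 2 and 3. All 3 KO libraries lay below all 3 controls, with a log2 fold change of −1.37 ± 0.06 (SE, adjusted p = 8.3e-09, edgeR quasi-likelihood test), so each library matched its label. The libraries held 52526109 to 67502788 estimated counts, of which Hox genes took 0.0367 to 0.0419%. A read pair added about 4 to these counts, which were made by dividing the bases covered by 75. A gene at 0 could therefore hold up to about 12 counts (3 read pairs), or 0.178 to 0.228 CPM depending on the library, and such limits cover counting error only. All 7 muscle markers examined were detected. Of 11 markers of neurons, glia, liver, blood, endothelium, epithelium, fat and cartilage, 2 passed the filter on low counts, and the 11 summed to 2.23–3.51 CPM in control and 3.25–3.71 CPM in KO libraries. Such marker levels cannot separate fewer cells of a type from less RNA per cell, which holds for every value below.

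C2C12 cells used the HoxA and HoxC clusters and not HoxB or HoxD. Levels are given as TPM, which scales each library to the same total after dividing by transcript length, so that genes can be set against each other. Summed over its 11 genes, HoxA (on the minus strand of chromosome 6, mm10) reached 211, 213 and 189 TPM in control libraries 1, 2 and 3. HoxC (chr15:102921103-103036852, plus strand), with 9 genes, reached 172, 172 and 187 TPM. HoxB (chr11:96194316-96368256, plus strand) reached 0.659, 0.576 and 0.143 TPM over 10 genes, and HoxD (chr2:74668310-74765142, plus strand) was at 0 for all 9 genes in every control library. Of all Hox TPM in the controls, 53.5% came from HoxA, 46.3% from HoxC and 0.12% from HoxB.

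**Figure D1:**
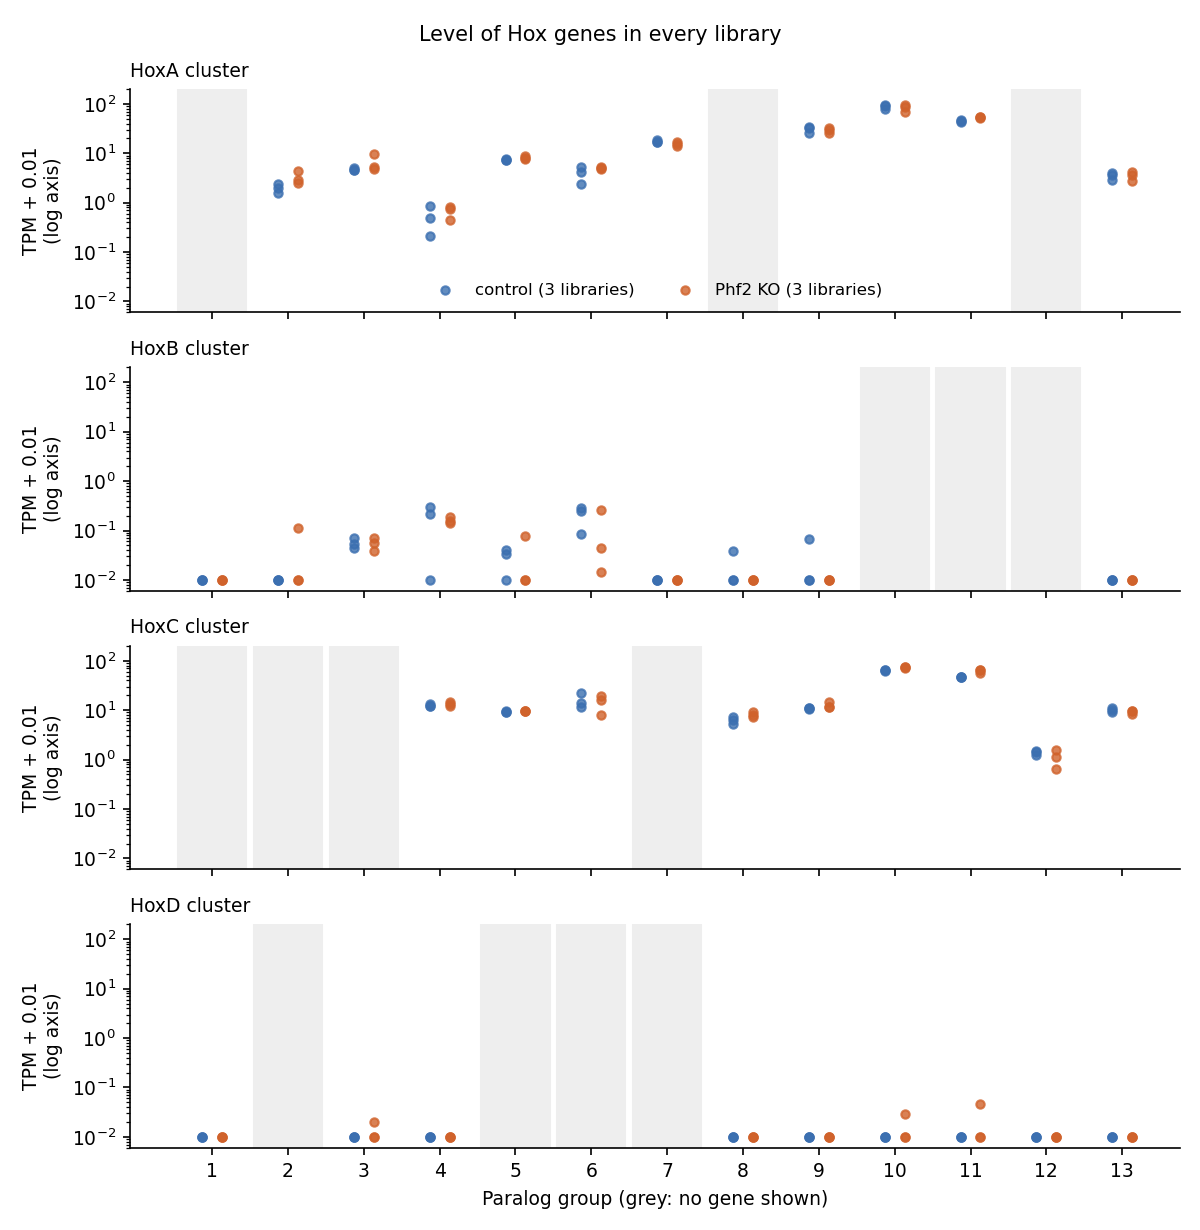
TPM + 0.01 on a log axis for Hox genes by paralog group, with 1 panel per cluster; blue points are the 3 control libraries and orange points the 3 *Phf2* KO libraries, and points at 0.01 are genes at 0 TPM. HoxA and HoxC hold values from below 1 to 94.9 TPM with a peak at group 10, whereas HoxB stays at or below 0.293 TPM and HoxD at or below 0.0365 TPM.

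The contrast between clusters was visible within single paralog groups, where the proteins have similar DNA-binding domains. In group 10, *Hoxa10* was at 87.8 ± 8.07 TPM (SD, n = 3) and *Hoxc10* at 64.2 ± 1.51 TPM in the controls, while *Hoxd10* was at 0. In group 11, *Hoxa11* was at 44.6 ± 1.98 TPM and *Hoxc11* at 46.3 ± 0.0623 TPM, while *Hoxd11* was at 0 in the controls. These 4 expressed genes of groups 10 and 11 gave 63.6% of all Hox TPM, and with *Hoxa9* and *Hoxc9* the share was 74.5%.

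The RefSeq sequences upstream of *Hoxa10* and *Hoxa11*, which were expressed, and of their paralogs *Hoxd10* and *Hoxd11*, which were not, are shown so that the start regions of the same 2 paralog groups can be compared. Each is the 250 bases before the gene's RefSeq start, 5′ to 3′ on the gene's strand (GRCm38.p6), with CpG dinucleotides in capitals. The windows are chr6:52240855-52241104 (minus strand), chr6:52245811-52246060 (minus strand), chr2:74691641-74691890 (plus strand) and chr2:74679308-74679557 (plus strand), in the order given.
Hoxa10: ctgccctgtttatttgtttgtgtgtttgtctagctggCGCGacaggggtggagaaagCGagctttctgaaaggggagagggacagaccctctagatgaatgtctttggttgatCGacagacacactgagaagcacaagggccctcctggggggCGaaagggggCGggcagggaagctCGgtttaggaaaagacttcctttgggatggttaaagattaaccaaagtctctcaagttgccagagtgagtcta
Hoxa11: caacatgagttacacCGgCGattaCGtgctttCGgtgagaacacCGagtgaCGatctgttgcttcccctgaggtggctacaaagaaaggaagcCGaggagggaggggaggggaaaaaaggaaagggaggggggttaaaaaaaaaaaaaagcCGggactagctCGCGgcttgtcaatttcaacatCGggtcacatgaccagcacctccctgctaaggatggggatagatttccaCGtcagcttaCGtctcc
Hoxd10: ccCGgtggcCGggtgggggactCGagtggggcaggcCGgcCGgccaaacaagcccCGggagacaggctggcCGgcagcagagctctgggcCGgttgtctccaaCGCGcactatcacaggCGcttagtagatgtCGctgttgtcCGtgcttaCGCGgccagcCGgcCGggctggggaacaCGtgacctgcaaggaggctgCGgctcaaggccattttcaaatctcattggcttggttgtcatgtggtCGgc
Hoxd11: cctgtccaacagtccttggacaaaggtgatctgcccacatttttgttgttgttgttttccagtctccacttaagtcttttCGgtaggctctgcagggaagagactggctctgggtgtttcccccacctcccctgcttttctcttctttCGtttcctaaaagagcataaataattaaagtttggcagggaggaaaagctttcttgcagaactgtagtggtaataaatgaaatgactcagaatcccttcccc
The expressed *Hoxa10* and *Hoxa11* held 7 and 13 CpG dinucleotides in these 250 bases, and the silent *Hoxd10* and *Hoxd11* held 20 and 2. CpG number thus did not follow expression in these 4 windows.

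In RefSeq windows of 300 bases, which add the first 50 bases of the transcript, 22 of the 39 Hox genes had a match. Of the windows of genes at 1 TPM or more 9 are in HoxA and 1 in HoxC, and of the others 3 are in HoxB and 9 in HoxD, so that the comparison is nearly 1 of HoxA with HoxB and HoxD. The 10 windows of genes at 1 TPM or more in the controls had a median of 13.5 CpG dinucleotides (range 4 to 45). The 12 windows of genes under 1 TPM had the same median of 13.5 (range 4 to 37), against 7 over all 32851 windows of the mouse table. The E-box CAGCTG, a palindrome of the kind that MyoD and myogenin bind, lay in 4 of the 10 windows of expressed genes (*Hoxa3*, *Hoxa5*, *Hoxa6* and *Hoxa11*), in 0 of the 12 others and in 16.3% of all windows. CCAAT, searched on both strands, lay in 5 of the 10 and in 9 of the 12, against 37.4% of all windows. TATAAA, searched on both strands, lay in 0 of the 10 and in 3 of the 12, against 13.6% of all windows. These are counts of letters in short windows. The RefSeq starts in the windows of *Hoxa7*, *Hoxa9*, *Hoxc4* and *Hoxd4* lie 3281, 3719, 15461 and 10049 bases from the annotated 5′ end of the gene in the GENCODE table. Each window is the one nearest to the outermost annotated 5′ end, and which start was in use was not tested. That of *Hoxa3* (chr6:52213018-52213317) lies between *Hoxa6* and *Hoxa7*.

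The clusters also hold the genes of miR-196 and miR-10, microRNAs that are known to repress Hox messages. Their mature sequences are shown because 196b and a copy of 196a lie in the expressed clusters and the 10 family does not. The seed, bases 2 to 8, is in capitals.
mmu-miR-196a-5p: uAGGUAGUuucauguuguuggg
mmu-miR-196b-5p: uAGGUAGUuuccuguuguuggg
mmu-miR-10a-5p: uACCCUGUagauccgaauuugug
mmu-miR-10b-5p: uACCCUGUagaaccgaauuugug
The miR-196 forms share a seed and differ by A12C (from 196a to 196b, counted from the 5′ end), and the miR-10 forms share another and differ by U12A (from 10a to 10b). *Mir196b* lies in HoxA (mature arm at chr6:52230129-52230150), and miR-196a is encoded by *Mir196a-2* in HoxC (chr15:102973365-102973386) and by *Mir196a-1* in HoxB (chr11:96265187-96265208). *Mir10a* lies in HoxB (chr11:96317186-96317208) and *Mir10b* in HoxD (chr2:74726074-74726096). Poly(A) libraries do not measure mature microRNAs. The precursor rows of all 5 genes had at most 10 counts in any library, fewer than the 12 that a 0 allows, so they do not separate the clusters.

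Within HoxA, the levels in the controls were low at the 3′ end, highest at groups 9 to 11 and low again at the 5′ end. *Hoxa2*, a hindbrain patterning gene, was at 2.0 ± 0.424 TPM (SD, n = 3). *Hoxa7* was at 17.4 ± 0.689 TPM and *Hoxa9* at 30.7 ± 4.0 TPM, next to the peak at *Hoxa10*. *Hoxa13*, the last gene, was at 3.48 ± 0.621 TPM. The lowest gene of the cluster was *Hoxa4*, at 0.513 ± 0.334 TPM, with 10 to 37 counts per library.

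HoxC, which has no genes of groups 1 to 3 or 7, peaked at groups 10 and 11 as well, but its 3′ genes were not low. *Hoxc4*, *Hoxc5* and *Hoxc6* were at 12.6 ± 0.914, 9.28 ± 0.30 and 16 ± 5.92 TPM (SD, n = 3). In group 4 the HoxC member was thus the highest, since *Hoxa4* was at 0.513 TPM, *Hoxb4* at 0.166 ± 0.150 TPM and *Hoxd4* at 0. At the 5′ end *Hoxc13*, known for its part in hair and nail formation, was at 10.01 ± 0.985 TPM, and its neighbour *Hoxc12* was at 1.39 ± 0.159 TPM.

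When the 20 HoxA and HoxC genes were ranked by mean control TPM, *Hoxa10* came first and *Hoxc10* second, with no overlap between their libraries. Their order depends on the length used. *Hoxa10* had a mean of 72.1 CPM in the controls with a longest transcript of 2565 bases, and *Hoxc10* 56.8 CPM with 1909 bases. Per base of the longest transcript, *Hoxc10* was thus the higher. *Hoxc11* and *Hoxa11*, the third and the fourth, overlapped, and *Hoxa9* followed without overlap. Further neighbours in rank whose control libraries overlapped included *Hoxa7* and *Hoxc6*, *Hoxc6* and *Hoxc4*, *Hoxc9* and *Hoxc13*, *Hoxc13* and *Hoxc5*, *Hoxa3* and *Hoxa6*, and *Hoxa6* and *Hoxa13*.

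Genes near the silent clusters were expressed. Within 500 kb of the silent HoxD cluster, 2 of 4 other protein-coding genes were at 1 TPM or more in the controls, namely *Lnpk* at 15.2 TPM and *Mtx2* at 27.4 TPM, while *Evx2*, a homeobox gene next to *Hoxd13*, was at 0. Around HoxB, 9 of 17 such genes were at 1 TPM or more, up to 264 TPM for *Nfe2l1*. Around HoxA 5 of 6 and around HoxC 16 of 25 reached 1 TPM, and *Evx1*, the HoxA counterpart of *Evx2*, was at 0 TPM. These counts include genes that lie inside a cluster, namely *Gm28308* and *5730596B20Rik* in HoxA and *Gm28230* in HoxD.

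**Figure D2:**
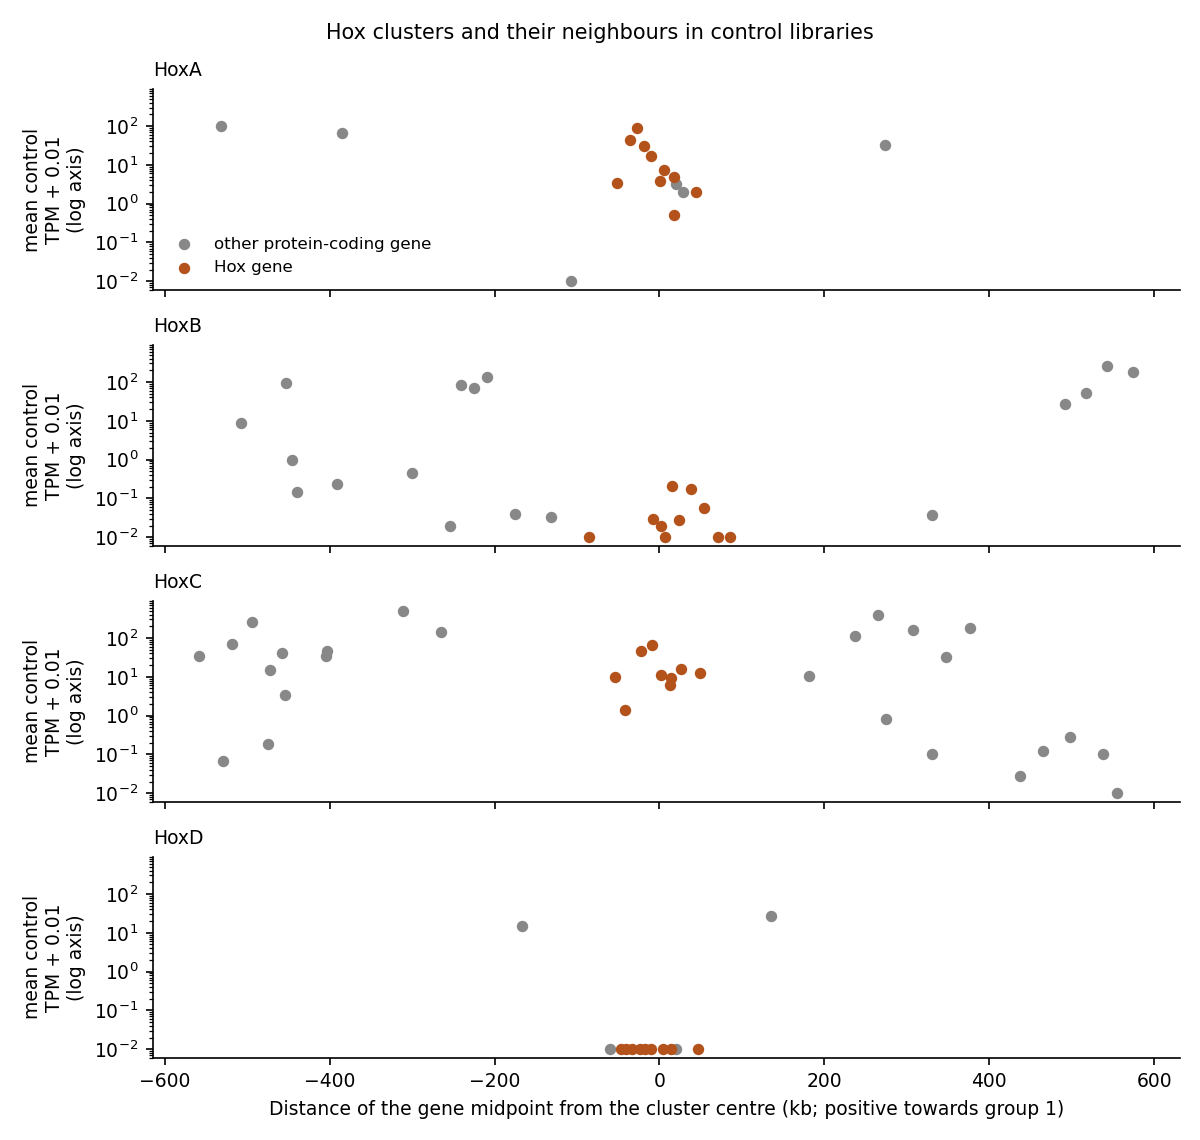
Mean control TPM + 0.01 (n = 3, log axis) of Hox genes (brown) and of the other protein-coding genes within 500 kb of each cluster (grey), by distance in kb from the cluster centre, positive towards group 1. In the HoxB and HoxD panels the brown points lie at the bottom. Grey points lie on both sides, some of them also at the bottom, and the highest are at 264 and 27.4 TPM.

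Transcripts other than Hox genes followed the same division. There were 46 such annotated genes between the first and the last Hox gene of a cluster. Of these, 17 were at 0 counts in every library: 9 of 10 in HoxD, 6 of 9 in HoxB, 2 of 7 in HoxC and 0 of 20 in HoxA. Several of the HoxA genes, such as *Gm27867* and *Mir196b*, held only 1 count in every library, fewer than the 12 that a 0 allows. The filter on low counts was passed by 0 of 10 in HoxD, 1 of 9 in HoxB, 3 of 7 in HoxC and 13 of 20 in HoxA. *Hoxa11os*, the antisense partner of *Hoxa11*, had the highest level, at 42.7, 38.8 and 42.0 CPM in the controls and 46.4, 43.7 and 44.8 CPM in the KO libraries. *Hotair*, a long noncoding RNA of HoxC known for its binding of Polycomb, followed at 6.84, 7.97 and 7.90 CPM against 8.55, 8.28 and 11.5 CPM. *5730596B20Rik*, a gene of HoxA, was the third by CPM, at a mean of 3.09 CPM in control and 3.59 CPM in KO libraries. None of the 17 genes that could be tested passed the threshold, against 6.48% of all genes tested, and the log2 fold changes were 0.13 ± 0.06 (SE) for *Hoxa11os* (adjusted p = 0.262, edgeR quasi-likelihood test) and 0.32 ± 0.15 for *Hotair* (adjusted p = 0.247). The gene nearest to the threshold, named after its values were seen, was *Hoxaas2* of HoxA, at 1.70, 2.34 and 0.876 CPM in control and 3.11, 2.82 and 2.81 CPM in KO libraries, with a log2 fold change of 0.83 ± 0.30 (adjusted p = 0.131).

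HoxB and HoxD were near 0 in *Phf2* KO cells as well. Over the 6 libraries HoxB summed to 6 to 57 counts, against 10681 to 14012 for HoxA and 10144 to 13515 for HoxC. *Hoxb1*, *Hoxb7*, *Hoxb8* and *Hoxb13* had no count in any library, nor did 8 of the 9 HoxD genes. The exception was *Hoxd11*, with 5 counts in KO library 3, which is less than the 12 counts that a 0 allows. HoxB summed to 0.184, 0.625 and 0.245 TPM in KO libraries 1, 2 and 3, within the range of the controls (exact permutation test, two-sided, p = 0.9).

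The 3 HoxB genes that passed the filter did so with few counts. *Hoxb6* was at 0.228, 0.275 and 0.0687 CPM in the controls and at 0, 0.228 and 0 CPM in the KO libraries. *Hoxb4* was at 0.351, 0.258 and 0 CPM against 0.163, 0.190 and 0.222 CPM. *Hoxb3* was at 0, 0.446 and 0 CPM against 0.374, 0.400 and 0.222 CPM. The groups overlapped for each, the SE of the log2 fold change was 0.93 to 1.22, and a difference was not detectable at this depth.

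In *Phf2* KO cells 3 Hox genes were higher than in control cells, and each belongs to group 10 or 11. They were *Hoxc11*, *Hoxa11* and *Hoxc10*, by 33.3%, 20.6% and 13.4% in the fit, and no Hox gene was lower. Of the 39 Hox genes 23 passed the filter on low counts, namely all of HoxA and HoxC and the 3 HoxB genes above. The call (adjusted p under 0.05, edgeR quasi-likelihood test, Benjamini-Hochberg over 17310 genes) was thus made for 3 of 23, against 6.48% of all genes tested, and the 3 higher calls stood against 3.22% of all genes in that direction. The 0 lower calls stood against 3.26%. At an unadjusted p under 0.05 the count was 5 higher and 0 lower. Of the 23, 15 had a fold change above 0 and 8 below, with a median log2 fold change of 0.03 against 0.00 over all genes tested (*Phf2* KO against control, as everywhere below).

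*Hoxc11* (ENSMUSG00000001656.3, chr15:102954427-102957708), a posterior gene known from the hindlimb and the sacral trunk, was at 43.4, 43.7 and 43.2 CPM in control libraries 1, 2 and 3. In KO libraries 1, 2 and 3 it was at 54.2, 61.4 and 58.1 CPM. The controls were nearly equal and every KO library lay above them. The log2 fold change was 0.41 ± 0.06 (SE, adjusted p = 7.7e-04, edgeR quasi-likelihood test), which was a larger size of change than that of 64.4% of all genes called. Its TPM moved likewise, from 46.3, 46.4 and 46.4 to 57.2, 65.8 and 64.0. The call was kept in all 9 alternatives on all libraries (adjusted p 1.4e-07 to 0.0451) and in all 6 fits that left out 1 library (adjusted p up to 0.00799).

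*Hoxa11* (ENSMUSG00000038210.10, chr6:52242106-52245810), needed with its HoxD paralog for the middle limb segment, was at 48.6, 45.1 and 43.4 CPM in the controls. In the KO libraries it was at 54.9, 55.7 and 54.7 CPM. The groups did not overlap, and the KO libraries were closer to each other than the controls were. The log2 fold change was 0.27 ± 0.06 (SE, adjusted p = 0.0116, edgeR quasi-likelihood test). The call was lost without control library 2 (adjusted p = 0.0655) and without KO library 2 (adjusted p = 0.0582), with log2 fold changes of 0.26 in both. It was also lost in 2 of the 9 alternatives on all libraries, both with limma on TPM (adjusted p = 0.101 and 0.106). *Hoxa11os* covers 35.0% of the *Hoxa11* exon bases on the opposite strand. The kit keeps strand, but whether the counting used it is not stated in the sources used here, so reads of the pair may have been mixed.

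*Hoxc10* (ENSMUSG00000022484.7, chr15:102966796-102971893), another gene of the lumbar trunk and hindlimb, was at 55.4, 57.6 and 57.5 CPM in the controls. In the KO libraries it was at 63.2, 66.1 and 64.1 CPM. The groups did not overlap, and the smallest gap between them was wider than the range of either group. The log2 fold change was 0.18 ± 0.05 (SE, adjusted p = 0.0443, edgeR quasi-likelihood test), close to the threshold. Leaving out any of the 6 libraries ended the call (adjusted p 0.0573 to 0.17), with log2 fold changes of 0.16 to 0.20. It was also lost in 3 of the 9 alternatives on all libraries, with limma-voom (adjusted p = 0.0628) and with limma on TPM (0.118 and 0.128). On the same strand *Hoxc10* shares 8.7% of its exon bases with *Hoxc5*, whose annotated start lies inside *Hoxc10*.

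**Figure D3:**
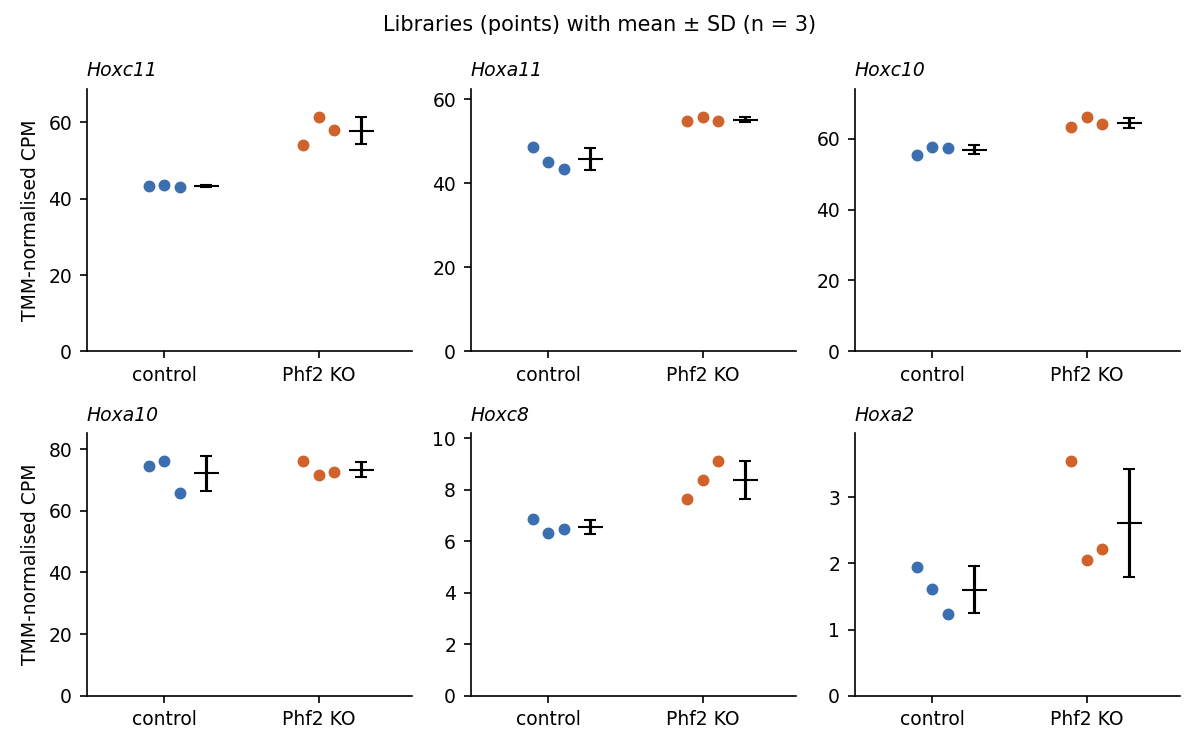
TMM-normalised CPM from 0 of 6 Hox genes in each library, with blue points for control, orange points for *Phf2* KO and black bars for mean ± SD (n = 3). *Hoxc11*, *Hoxa11* and *Hoxc10* passed the threshold with groups that did not overlap, *Hoxa10* overlapped, and *Hoxc8* and *Hoxa2* did not overlap but missed the threshold.

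*Hoxa10*, the Hox gene of highest mean TPM in the controls, gave no such difference. It was at 74.5, 76.0 and 65.7 CPM in the controls and at 76.0, 71.6 and 72.5 CPM in the KO libraries. The groups overlapped, and the log2 fold change was 0.03 (95% interval −0.09 to 0.14, adjusted p = 0.878, edgeR quasi-likelihood test). Whether *Hoxa10* and *Hoxc11* differed in their response was not tested.

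*Hoxa9*, the 3′ neighbour of *Hoxa10*, was at 39.5, 39.9 and 32.5 CPM in the controls and at 36.3, 32.4 and 36.1 CPM in the KO libraries. The groups overlapped, and the log2 fold change was −0.09 (95% interval −0.25 to 0.07, adjusted p = 0.615, edgeR quasi-likelihood test). *Hoxc6*, a gene of the thorax and forelimb level, was at 15.5, 16.2 and 21.1 CPM against 14.9, 15.5 and 15.9 CPM. Control library 3 was the high one, and the log2 fold change was −0.19 (95% interval −0.41 to 0.03, adjusted p = 0.401). The TPM of *Hoxc6* spread more widely than its CPM, from 11.5 to 22.7 in the controls and from 7.94 to 19.1 in the KO libraries.

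The 3 Hox genes nearest to the threshold were *Hoxc8*, *Hoxa2* and *Hoxa3*, and the KO libraries were above all controls for each. *Hoxc8*, known from the thoracic trunk, was at 6.86, 6.32 and 6.49 CPM against 7.66, 8.38 and 9.10 CPM. Its log2 fold change was 0.35 ± 0.13 (SE, adjusted p = 0.132, edgeR quasi-likelihood test).

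*Hoxa2* was at 1.95, 1.61 and 1.24 CPM in the controls and at 3.54, 2.06 and 2.22 CPM in the KO libraries. KO library 1 stood above the rest, and the log2 fold change was 0.71 ± 0.27 (SE, adjusted p = 0.162, edgeR quasi-likelihood test). *Hoxa3*, a gene of the pharyngeal and neck region, was at 8.98, 9.38 and 10.8 CPM against 12.5, 11.1 and 11.01 CPM. Its log2 fold change was 0.25 ± 0.12 (SE, adjusted p = 0.265), and genes on the opposite strand overlap 25.4% of its exon bases.

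With the 3 called genes, 6 of the 23 Hox genes had groups that did not overlap, each with KO above control. Over all genes tested the groups did not overlap in 25.1%, with KO above in 12.9% and below in 12.2%. The other 17 HoxA and HoxC genes had log2 fold changes from −0.31 (*Hoxc12*) to 0.71 (*Hoxa2*). Of the 20 HoxA and HoxC genes, 14 had fold changes above 0 and 6 below, and the SE ran from 0.05 for *Hoxc10* to 0.56 for *Hoxa4*. The precision thus followed the level, and a change of the size seen in *Hoxc11* was within the 95% interval of, among others, *Hoxa2*, *Hoxa3*, *Hoxa4*, *Hoxa6*, *Hoxa13*, *Hoxc8* and *Hoxc12*.

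**Figure D4:**
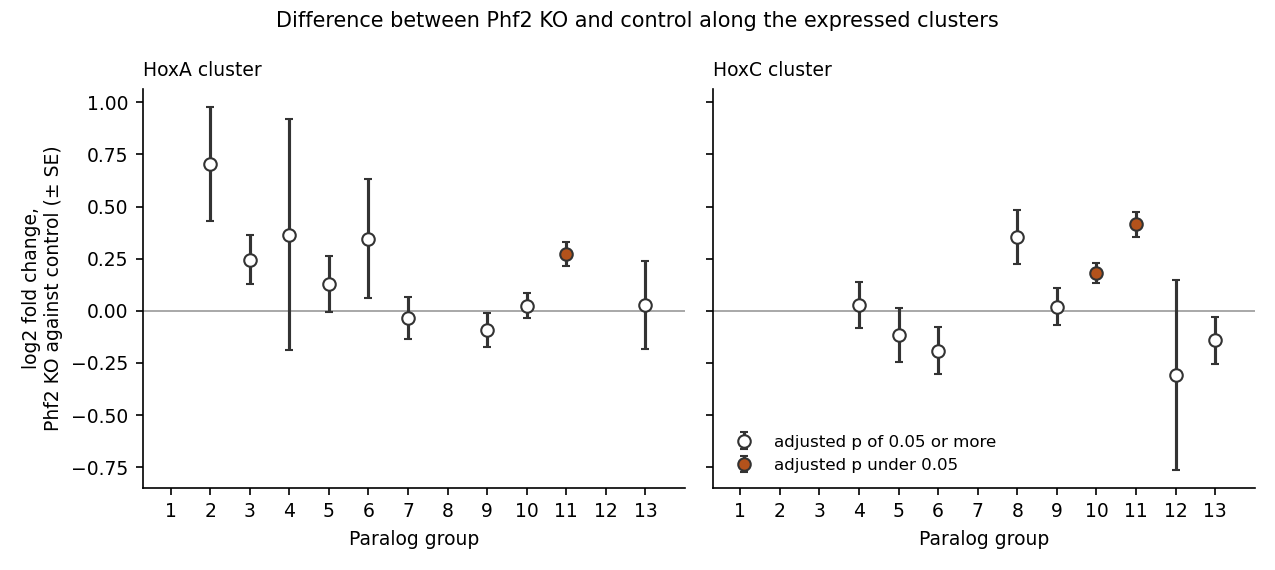
The log2 fold change of *Phf2* KO against control (± SE, edgeR quasi-likelihood fit, n = 3 libraries per group) for HoxA and HoxC genes by paralog group, with filled points for adjusted p under 0.05. The filled points are *Hoxa11* at 0.27, *Hoxc10* at 0.18 and *Hoxc11* at 0.41, next to *Hoxa10* at 0.03.

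By cluster, the sum of HoxC TPM was 198, 203 and 211 in KO libraries 1, 2 and 3, each above the controls of 172, 172 and 187. The difference of 0.20 on the log2 scale had an exact permutation p of 0.1 (two-sided, 3 libraries against 3), the smallest that this design allows, and 0.3 when adjusted over the 3 clusters tested. *Hoxc10* and *Hoxc11* are part of that sum. HoxA summed to 218, 192 and 220 TPM in the KO libraries against 211, 213 and 189 in the controls, and the groups overlapped (log2 difference 0.04, exact permutation p = 0.5). As summed CPM per kb of transcript in place of TPM, the HoxA difference was 0.10 and the HoxC difference 0.15, each with an exact permutation p of 0.1. Within HoxC, groups 9 to 11 went from 120, 122 and 123 TPM to 142, 152 and 150 TPM, while groups 4 to 8 overlapped, at 42.1, 38.8 and 51.7 TPM against 45.6, 40.2 and 50.2 TPM. The share of groups 9 to 11 of both clusters in all Hox TPM was 74.5% in control and 75.7% in KO cells.

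**Figure D5:**
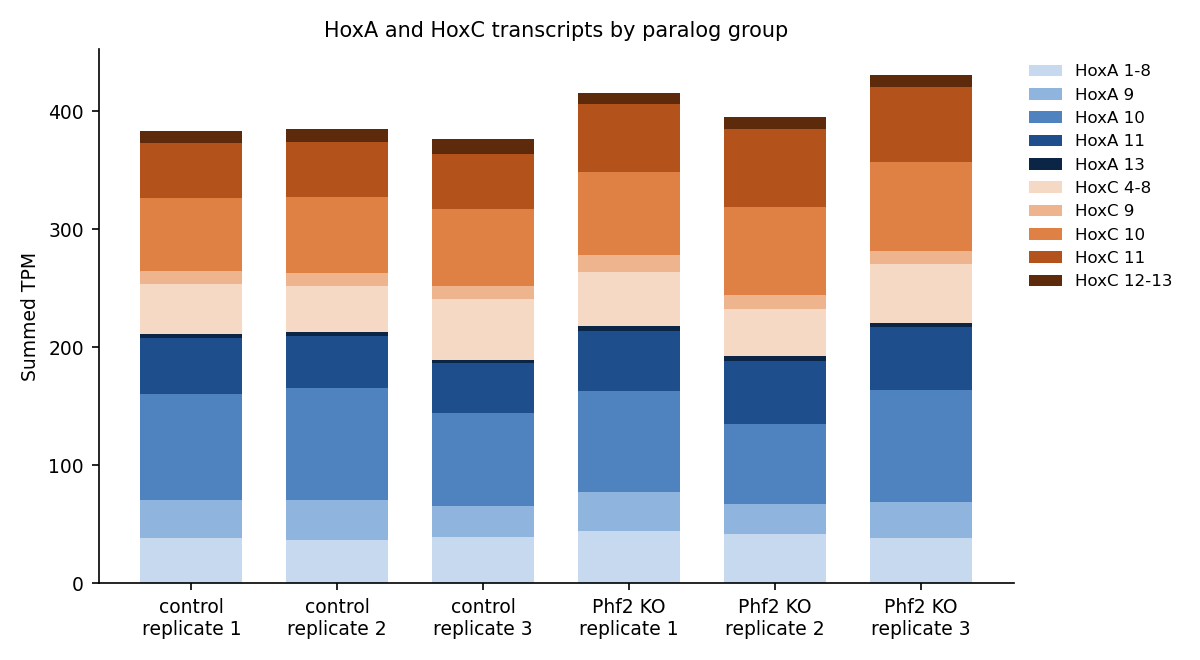
Summed TPM of HoxA (blue) and HoxC (orange) in each library, stacked by paralog group from 0. Groups 10 and 11 give 63.6% of all Hox TPM in the controls, and the HoxC part is 172 to 187 TPM in control and 198 to 211 TPM in *Phf2* KO libraries.

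Muscle genes moved in the same libraries. Of the 7 muscle markers 5 were lower in *Phf2* KO cells and 0 higher (3.26% and 3.22% of all genes tested), led by *Ckm*, the muscle creatine kinase (log2 fold change −0.78 ± 0.07, SE), and *Mymk*, a membrane protein of myoblast fusion (−0.50 ± 0.06). The list summed to 6511–7585 CPM in control and 5232–5710 CPM in KO libraries. Its part in the Hox differences was not tested.

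Hox proteins bind DNA with TALE homeodomain partners, the Pbx, Meis and Pknox proteins. All 9 of these genes passed the filter, and 1 was higher and 0 lower (3.22% and 3.26% of all genes tested). *Pbx3* was higher in KO cells, at 14.6, 11.6 and 14.8 CPM in control and 17.5, 18.0 and 17.8 CPM in KO libraries, with a log2 fold change of 0.38 ± 0.10 (SE, adjusted p = 0.0422, edgeR quasi-likelihood test). The other 8 did not pass the threshold. Calls in the muscle list above, in this list and in those below were not followed through the alternative fits or the fits without 1 library.

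Of 31 genes of the Polycomb complexes, which keep Hox clusters silent, 1 was higher and 0 lower, against 3.22% and 3.26% of all genes tested. It was *Bmi1*, a PRC1 subunit, with a log2 fold change of 0.24 ± 0.06 (SE, adjusted p = 0.0441, edgeR quasi-likelihood test), and the median of the list was 0.06. A list of trithorax and H3K27 demethylase genes, which oppose Polycomb, had 18 members, which included other factors such as *Mllt3* and *Dot1l*. Of the 18, 3 were higher and 0 lower against the same 3.22% and 3.26%, and the median was 0.01. They were *Kdm6a*, an H3K27 demethylase (0.25 ± 0.06), *Kmt2c*, an H3K4 methyltransferase (0.24 ± 0.05), and *Mllt3*, a subunit of the super elongation complex (0.32 ± 0.07).

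Retinoic acid is a known inducer of Hox genes, above all of the 3′ groups. Of 17 genes of its pathway 13 were tested, with 1 higher and 0 lower (3.22% and 3.26% of all genes tested) and a median log2 fold change of 0.07. The higher gene was *Stra6*, a receptor for retinol uptake, at 2.79, 4.16 and 4.17 CPM in control and 7.20, 8.61 and 6.40 CPM in KO libraries (log2 fold change 1.00 ± 0.19, SE, adjusted p = 0.00527, edgeR quasi-likelihood test). Its deposited TPM was low and the groups overlapped, at 0.143, 0.153 and 0.359 in control and 0.760, 0.422 and 0.240 in KO libraries.

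Other homeobox and T-box genes that mark position were mostly silent. Of 17 examined, 7 had no count in any library and 6 passed the filter, of which 1 was higher and 1 lower (3.22% and 3.26% of all genes tested). *Tbx15*, known from limb and trunk mesenchyme, was lower, at 71.4, 72.8 and 65.5 CPM in control and 54.4, 56.0 and 57.0 CPM in KO libraries (log2 fold change −0.33 ± 0.05, SE, adjusted p = 0.00264, edgeR quasi-likelihood test). *Shox2*, a gene of the proximal limb, was higher by 0.23 ± 0.06 (adjusted p = 0.0339).

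Of 26 listed genes that flank the clusters, 25 were in the matrix and 21 were tested, with 1 higher, 0 lower (3.22% and 3.26% of all genes tested) and a median log2 fold change of 0.08. The higher gene was *Nfe2l2*, which encodes the stress regulator NRF2 and lies on the chromosome of HoxD but more than 500 kb from the cluster, with 0.24 ± 0.05 (SE, adjusted p = 0.0167, edgeR quasi-likelihood test).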

How the data were processed

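Poly(A)-selected, directional libraries were sequenced as read pairs of 150 bases. The authors aligned them to mm10 with HISAT2 (named in the submitters' processing notes) and counted them with StringTie; versions and annotation are not given in the sources used here. The deposited matrix holds estimated counts per gene, whole numbers equal to bases covered divided by 75. The deposited library tables hold signal values, TPM and coverage, for reference genes and for loci assembled in that library. Identifiers matched GENCODE M21 (39 of 39 Hox genes).

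Counts were filtered (filterByExpr, minimum 10), TMM-normalised and tested with edgeR 4.0.16 (quasi-likelihood, robust, R 4.3.3) in all 6 libraries, with Benjamini-Hochberg adjustment. Alternatives were exactTest, DESeq2 1.42.0, limma 3.58.1 (voom, and log2 of the deposited TPM plus 1 or 0.1), counts divided by 4 and left-out libraries. The study also used exactTest, but the run here called 537 genes higher and 592 lower, more than the study reported. The fit was tested on simulated data. Intervals are 1.96 SE, which makes them somewhat narrower than the quasi-likelihood test implies. That of *Hoxa3*, for example, was 0.02 to 0.47 at an unadjusted p of 0.053 in that test. Summed TPM was compared on the log2 scale by a two-sided exact permutation test (scipy 1.17.1); HoxD, at 0 in 4 libraries, has no log value and was not tested. Same-numbered control and KO libraries deviated together from their group means (r = 0.183, 0.345 and 0.234 over 10923 genes, other pairs at most 0.0899), so the replicate number served as a block in an alternative fit. Values in every library are given for Hox genes past the threshold, the 3 highest by control TPM in each cluster and the 3 nearest to the threshold. Genes inside the clusters were ordered by CPM, since short RNA models had high TPM on almost no counts. The genes, lists and windows were chosen with earlier results of these data known. Promoter and microRNA sequences are from RefSeq tables. Some items are not reported here.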

Additional observations from a re-analysis of the deposited data

Results flagged for a closer look

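Loci that were assembled from the reads of 1 library, and not used in the comparisons, gave low values over the silent clusters in *Phf2* KO library 3. That library held the most estimated counts of all (67502788). An assembled locus over *Hoxb4*, *Hoxb5* and *Hoxb6* (chr11:96292862-96322186) had 0.439 TPM at a coverage of 1. The reference rows of these genes reached 0.293 TPM in the controls (*Hoxb4*, control library 1). Another locus, over *Hoxd10* and *Hoxd11* (chr2:74684155-74694166), also had 0.439 TPM at a coverage of 1, where the reference rows of the controls were at 0. The TPM and coverage of the loci were thus identical, and whether they are measured levels was not tested. In *Phf2* KO library 3 the reference rows were lower, at 0.182 TPM for *Hoxb4*, 0.0365 for *Hoxd11* and 0.0184 for *Hoxd10*. Both loci rest on a single library. *Phf2* KO libraries 1 and 2 had no locus over 2 or more HoxB or HoxD genes with more TPM than the controls.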

How the results depend on the processing

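*Phf2* and *Hoxc11* kept their calls in every alternative and every fit without 1 library. The number of higher Hox genes was 3 in 6 of the 9 alternatives on all libraries, 2 with limma-voom, and 1 with limma on TPM plus 1 or plus 0.1, where *Hoxc11* alone was left. It was 1 to 2 without 1 library. No Hox gene was lower in any of these fits. *Hoxb3* was called only without control replicate 2 (log2 fold change 7.31, adjusted p = 0.0481), where both remaining controls were at 0, so that this value is no bound. *Hoxa11* lost its call on TPM (adjusted p = 0.101 and 0.106), and *Hoxc10* on TPM (0.118 and 0.128) and with limma-voom (0.0628). With the replicate block, the calls were 3 Hox genes (adjusted p 9.4e-04, 0.0111 and 0.0437) and the block changed no other call among Hox genes. All genes higher numbered 557, with 57 and 65 on TPM plus 1 and plus 0.1 and 206 to 507 without 1 library, and all genes lower 565, with 70, 88 and 262 to 532. A filter on counts divided by 4 passed 19 Hox genes and one at 1 CPM in at least 3 libraries passed 18, against 23. The difference in summed HoxA TPM ranged from −0.0168 (without control replicate 3) to 0.10 without 1 library, and was 0.10 as CPM per kb (exact permutation p = 0.1, against 0.5). That of HoxB turned from −0.32 to 0.35 as CPM per kb, and ranged from −1.02 to 0.0823 without 1 library, above 0 without control replicate 1 (0.0823) or KO replicate 1 (0.0459). The cause was not tested. With 3 wells of 1 pool per group, differences between pools and effects of *Phf2* cannot be told apart, and depth limits HoxB and HoxD to the bounds given.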
